A study of Mus musculus with 55 samples.

Results

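Line IL-2156 is 1 of 29 Collaborative Cross (CC) lines whose liver transcriptomes were sequenced. CC lines descend from crosses of 8 founder strains followed by inbreeding, so that mice of a line are close to genetically identical. All mice whose strain label is IL-2156 were taken, which gave 3 of the 55 mice, and they were compared with the 52 mice of the 28 other lines. All 55 mice were untreated males of the same colony, fed chow and kept under a 12-hour light and dark cycle. The labels name no genotype other than the line, no single allele and no agent, and the lines differ in the founder alleles they carry. The 3 IL-2156 mice were 10 weeks old and weighed 38 g (mouse 1), 27.7 g (mouse 2) and 25.3 g (mouse 3). The other mice were 8 to 11.9 weeks old and weighed 12.8 to 35 g, so mouse 1 was the heaviest of all, and 1 line had a higher mean weight than IL-2156 (30.3 ± 6.75 g, SD, n = 3). Whether the 3 mice shared a litter, a cage, a day of dissection or a sequencing run is not given in the sources used here, so a property of the line and of a shared environment cannot be told apart.

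The libraries of mice 1, 2 and 3 held 29550632, 26719646 and 24587048 fragments assigned to genes, within the range of the other mice's libraries. Each of the 3 mice correlated best with a mouse of its own line over the 11284 genes with a maximum FPKM of at least 2 (Spearman 0.960 to 0.971 within the line, at most 0.957 with any other mouse). FPKM is fragments per kilobase of transcript, scaled to library depth. Y-linked Ddx3y was present in every mouse (10.2 to 11.4 FPKM in IL-2156), and Xist reached at most 0.07 FPKM in IL-2156 and exceeded 1 FPKM in 1 of the 52 other mice. Hepatocyte genes were abundant in each IL-2156 library, with albumin (Alb) at 20788, 19600 and 8656 FPKM. In whole liver, fewer cells of a type and less RNA per cell cannot be told apart.

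The liver answers infection and injury with the acute phase response, in which hepatocytes exposed to inflammatory cytokines raise the secretion of proteins such as the serum amyloids, orosomucoids and haptoglobin and lower the secretion of others such as albumin. The transcription factors STAT3, C/EBP and NF-kB are known to carry this signal in hepatocytes. Kupffer cells, the resident macrophages, sense bacterial products and release those cytokines, while neutrophils enter the liver from blood.

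The promoters below belong to Lcn2, Serpina3n and Steap4, acute phase genes for which all 3 IL-2156 mice lay above every other mouse or which were called with the line as the unit. Il1rn, also called, has 3 annotated starts and is not shown. Each line holds the 250 bases before the annotated start, 5′ to 3′, from RefSeq on GRCm38.p6, which is a later build than that of the expression files. These are bases of the reference genome, and the founder alleles that IL-2156 carries there are not given in the sources used here. Capitals mark matches on either strand to TTNNGNAA (C/EBP) or TTCNNNGAA (STAT3), which do not overlap each other here. Lcn2 lies at chr2:32387740-32387989 on the minus strand, Serpina3n at chr12:104406458-104406707 on the plus strand, and Steap4 at chr5:7960222-7960471 on the plus strand.
Lcn2: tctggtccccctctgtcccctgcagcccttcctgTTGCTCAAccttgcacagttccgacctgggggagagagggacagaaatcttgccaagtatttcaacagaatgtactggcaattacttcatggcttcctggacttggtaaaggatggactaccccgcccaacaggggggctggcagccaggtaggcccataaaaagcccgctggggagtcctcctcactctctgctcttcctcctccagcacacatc
Serpina3n: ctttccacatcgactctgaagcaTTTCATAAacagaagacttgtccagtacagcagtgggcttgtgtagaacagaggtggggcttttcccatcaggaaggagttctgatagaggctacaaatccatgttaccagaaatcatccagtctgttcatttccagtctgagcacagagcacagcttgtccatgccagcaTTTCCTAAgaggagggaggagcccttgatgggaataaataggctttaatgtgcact
Steap4: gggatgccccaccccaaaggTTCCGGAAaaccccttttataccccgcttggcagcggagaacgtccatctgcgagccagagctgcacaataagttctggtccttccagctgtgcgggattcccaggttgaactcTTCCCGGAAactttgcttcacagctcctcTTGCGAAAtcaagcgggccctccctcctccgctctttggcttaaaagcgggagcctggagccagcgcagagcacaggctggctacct

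Of the 24 acute phase genes listed, 21 matched this promoter table by symbol, with 24 promoters. The C/EBP letters were present in 17 of these 24 promoters (70.8%), against 36.8% of all 32851 promoters of that length. STAT3 letters were present in 7 (29.2%), against 7.02% of all promoters. The NF-kB letters searched, GGGA and TTCC with a pair of free bases between them, were present in 0 of the 24, against 1.21% of all promoters. For the 38 genes called higher with the line as the unit, of which 26 matched with 35 promoters, the shares were 42.9% for C/EBP, 8.57% for STAT3 and 5.71% for NF-kB. These are matches of letters, not sites. The acute phase promoters are not independent, because overlapping promoters of Il1rn share a C/EBP match and Saa1 and Saa2 hold the same letters. Hamp and Hamp2 likewise hold the same STAT3 letters.

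The question for IL-2156 was which genes set its livers apart from those of the other lines. With the line as the unit, where counts were summed over the mice of each line and 1 line was set against 28, edgeR called 40 of 11284 genes (0.354%) at an adjusted p under 0.05. Of these, 38 were higher (0.337%) and 2 lower (0.0177%) in IL-2156, and IL-2156 was the highest or the lowest of the 29 lines for all 40. With the mouse as the unit, where the spread is that between mice of a line, 3479 genes (30.8%) were called, 2098 higher (18.6%) and 1381 lower (12.2%). All 40 genes were among them. For each of the 4 other lines with 3 mice, the same tests called 0 to 23 genes with the line as the unit and 1906 to 2390 with the mouse as the unit. DESeq2 with the line as the unit called 119 genes, 43 higher and 76 lower, so that the balance of directions differed between the tools. With the body weight of the lines as a covariate 10 genes were called.

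Acute phase genes were higher in IL-2156. Of 24 acute phase genes tested, 21 (87.5%) were called higher and 1 (4.17%) lower with the mouse as the unit. The shares over all genes were 18.6% and 12.2%. The count of 21 was the same without any 1 of the 3 mice. The list's median log2 difference was 2.28, against 0.01 over all genes. IL-2156 was the highest of the 29 lines for 19 members, and for 457 of all 11284 genes. With the line as the unit 3 members were called higher (Serpina3n, Steap4 and Il1rn). Summed FPKM of the list was 63233, 80945 and 162276 in the IL-2156 mice and had a median of 17372 in the other mice, of which 1, from line IL-2011, exceeded the lowest IL-2156 mouse.

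Lcn2 (lipocalin 2, which binds bacterial siderophores and so withholds iron) stood furthest apart. It measured 1669, 1983 and 1930 FPKM in the 3 mice, a mean of 1861 ± 168 (SD, n = 3), while the 52 other mice lay between 0.28 and 516 with a median of 5.63. The groups did not overlap. The log2 difference was 8.18 ± 0.51 (SE; edgeR adjusted p = 3.9e-13) with the mouse as the unit and 5.68 ± 1.43 (edgeR adjusted p = 0.077) with the line as the unit. The highest other line was IL-72, with a mean of 285 FPKM.

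Serum amyloids, which travel on high-density lipoprotein in inflammation, followed. Saa1 measured 12858, 16214 and 38298 FPKM, and Saa2 measured 13949, 16038 and 43228, against medians of 177 and 65.4 in the other mice. Both groups overlapped at the top, because the highest other mouse reached 26264 for Saa1 and 30051 for Saa2. Saa3, made by macrophages as well as hepatocytes, measured 185, 250 and 204 FPKM against a median of 4.50, and its highest other mouse reached 1179. Saa1 and Saa2 are near-identical copies among which RSEM divided shared reads, so their separate levels are uncertain.

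Plasma transport proteins were also higher. Orm2, an orosomucoid, measured 674, 2667 and 3479 FPKM against a median of 16.1 in the other mice, whose highest value was 1311, so that mouse 1 lay within their range. Haptoglobin (Hp), which binds free haemoglobin, measured 6565, 7348 and 13210 FPKM against 1573. Hemopexin (Hpx), which binds haem, measured 7616, 10413 and 13146 FPKM against 2265. With the mouse as the unit the log2 differences were 6.65 ± 0.46 for Orm2, 2.41 ± 0.21 for Hp and 2.16 ± 0.21 for Hpx (SE; edgeR adjusted p at most 5.1e-09), and with the line as the unit none of the 3 was called.

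**Figure D1:**
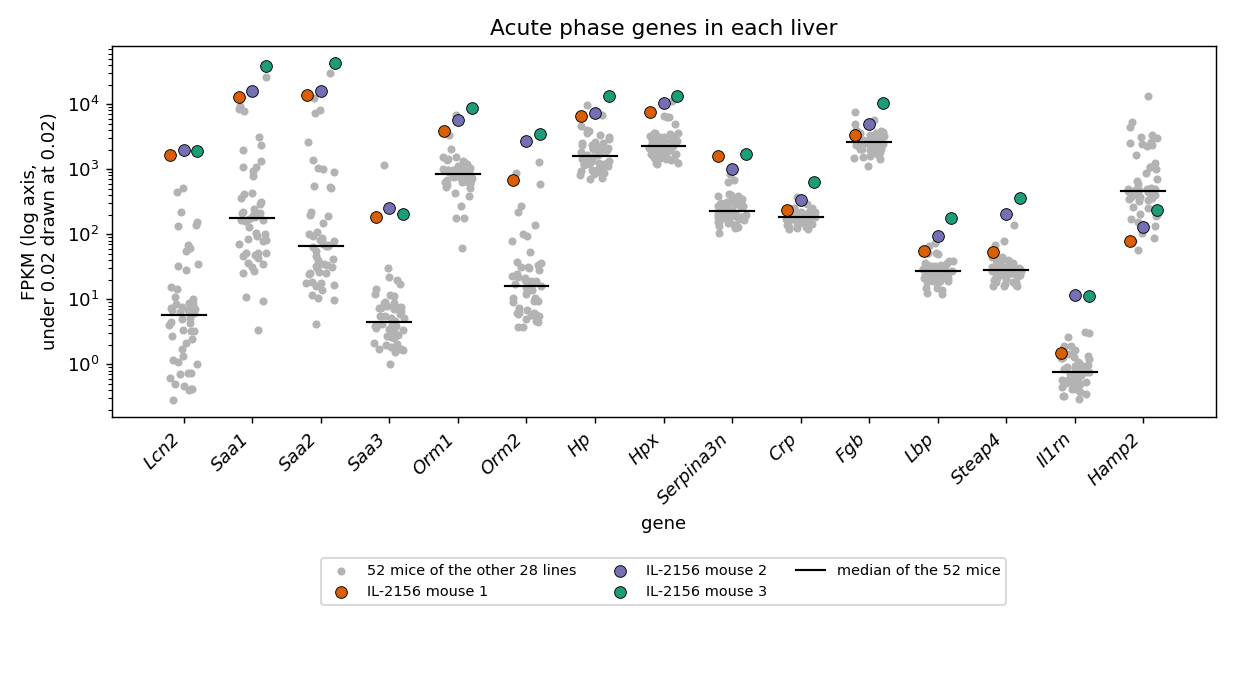
FPKM (log axis) of 15 acute phase and related genes in each liver, with the 3 IL-2156 mice in colour, the 52 other mice in grey and a bar at the median of the latter. The IL-2156 mice lie above all grey points for Lcn2 and Serpina3n, at the top of the range for most genes, and in the lower part for Hamp2, where they measured 79.5, 130 and 232 FPKM.

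Serpina3n, a serine protease inhibitor at chr12:105644939-105652539 (NCBI build 37), measured 1595, 1007 and 1727 FPKM against 104 to 834 in the other mice. The groups did not overlap, and the log2 difference of 2.41 ± 0.49 passed the test with the line as the unit (edgeR adjusted p = 0.015). Steap4, a metalloreductase, measured 52.8, 205 and 357 FPKM against a median of 28.02 and a maximum of 138, with a log2 difference of 2.54 ± 0.47 (edgeR adjusted p = 0.0067). Mice 2 and 3 lay above all others and mouse 1 within their range. Il1rn, the interleukin-1 receptor antagonist, measured 1.47, 11.4 and 11.3 FPKM against a median of 0.75 (log2 difference 2.98 ± 0.57, edgeR adjusted p = 0.010), again with mouse 1 inside the range of the others. Lbp, which hands lipopolysaccharide to its receptor, was not on the list and was called by both tests. It measured 55.8, 94.3 and 177 FPKM against a maximum of 72.8 in the other mice (line as the unit, 1.87 ± 0.40, edgeR adjusted p = 0.025).

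Other members moved less. C-reactive protein (Crp) measured 233, 334 and 628 FPKM against a median of 185, and fibrinogen beta (Fgb) measured 3354, 4995 and 10356 against 2602. Hamp2, a hepcidin gene, was the member called lower, with a median of 469 FPKM in the other mice. Outside the list, the metallothionein Mt2 measured 570, 819 and 1780 FPKM against a median of 63.6. With the mouse as the unit, 16 of 35 complement and coagulation genes (45.7%) were called higher and 3 (8.57%) lower. Over all genes the shares were 18.6% and 12.2%.

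Genes that sense bacterial products or restrain the response to them were among the 40 called with the line as the unit, and those described here were chosen after their values were seen. Tifa and Alpk1 are neighbours on chromosome 3, 9.35 kb apart on opposite strands, and encode an adaptor and a kinase that act together on a bacterial sugar. Tifa measured 9.71, 43.3 and 78.95 FPKM against a maximum of 16.0 in the other mice, and Alpk1 measured 0.63, 5.65 and 4.67 against a maximum of 1.36. Mouse 1 lay within the range of the others for both genes. Cd14 and Tlr2, receptors for bacterial lipids, measured 0.77, 18.4 and 8.31 FPKM and 0.36, 5.93 and 4.50 FPKM, with maxima of 5.12 and 1.42 elsewhere. Irak3, which restrains Toll-like receptor signals, measured 0.12, 5.88 and 2.26 FPKM, and Zc3h12a, an RNase that degrades cytokine transcripts, measured 1.22, 3.59 and 2.44. Cxcl13, a B cell chemokine, measured 0.67, 151.9 and 11.1 FPKM (log2 difference 5.29 ± 1.04, edgeR adjusted p = 0.012).

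The 3 mice were not alike in these genes. Among the 38 genes called higher, mouse 1 was the lowest of the 3 in 35, and over all 40 genes mouse 1 lay within the range of the other lines' mice for 33, mouse 2 for 3 and mouse 3 for 5. Without mouse 1 the test with the line as the unit called 166 genes, and without mouse 2 it called 20. The 7 genes for which no IL-2156 mouse lay within that range in FPKM were Serpina3n, Loxl4, Mustn1, Mif4gd, the pseudogene Gm11945, Lipc and Dmxl2, named after their values were seen.

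Markers of leukocytes moved with these genes. For the 14 Kupffer cell and macrophage markers, 13 (92.9%) were called higher and 1 (7.14%) lower with the mouse as the unit. Over all genes the shares were 18.6% and 12.2%. The median log2 difference of these markers was 1.54. Their summed FPKM was 185, 877 and 339 in mice 1, 2 and 3 and 71.8 to 501 in the other mice, with a median of 162, and no defining marker was at 0 in all 3 mice. The 6 neutrophil markers tested were all called higher, and the sum over all 9 was 5.60, 146 and 72.7 against 0.58 to 42.2. Of 5 lymphocyte markers tested 1 (20%, near the share over all genes) was called higher, the pan-leukocyte gene Ptprc. Their part in the acute phase and sensing results was not tested. The Kupffer cell and neutrophil sums of mouse 1, and the Kupffer cell sum of mouse 3, lay within the range of the other mice.

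Single markers showed the same order of mice. Marco, a scavenger receptor of macrophages, measured 0.88, 75.4 and 10.4 FPKM, and lysozyme Lyz2 measured 26.1, 314 and 51.5 FPKM. Clec4f, specific to Kupffer cells in mouse liver, measured 23.4, 50.05 and 41.9 FPKM and stayed under the highest other mouse (54.4). S100a9, a calcium-binding protein of neutrophils, measured 1.99, 72.7 and 34.3 FPKM against a median of 2.03. H2-Ab1, a class II chain that presents peptides to helper T cells, was highest in mouse 2 and measured 17.1, 147.0 and 38.6 FPKM (log2 difference 2.85 ± 0.64, edgeR adjusted p = 0.036 with the line as the unit). The invariant chain Cd74 measured 46.2, 408 and 90.9 FPKM and was not called with the line as the unit (edgeR adjusted p = 0.051). Over 19 class I and II genes, 12 (63.2%) were called higher and 2 (10.5%) lower with the mouse as the unit. For 29 interferon-stimulated genes the counts were 13 (44.8%) and 1 (3.45%), against 18.6% and 12.2% of all genes. The class I genes are near-identical copies that differ among founder strains, so their separate levels are uncertain.

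**Figure D2:**
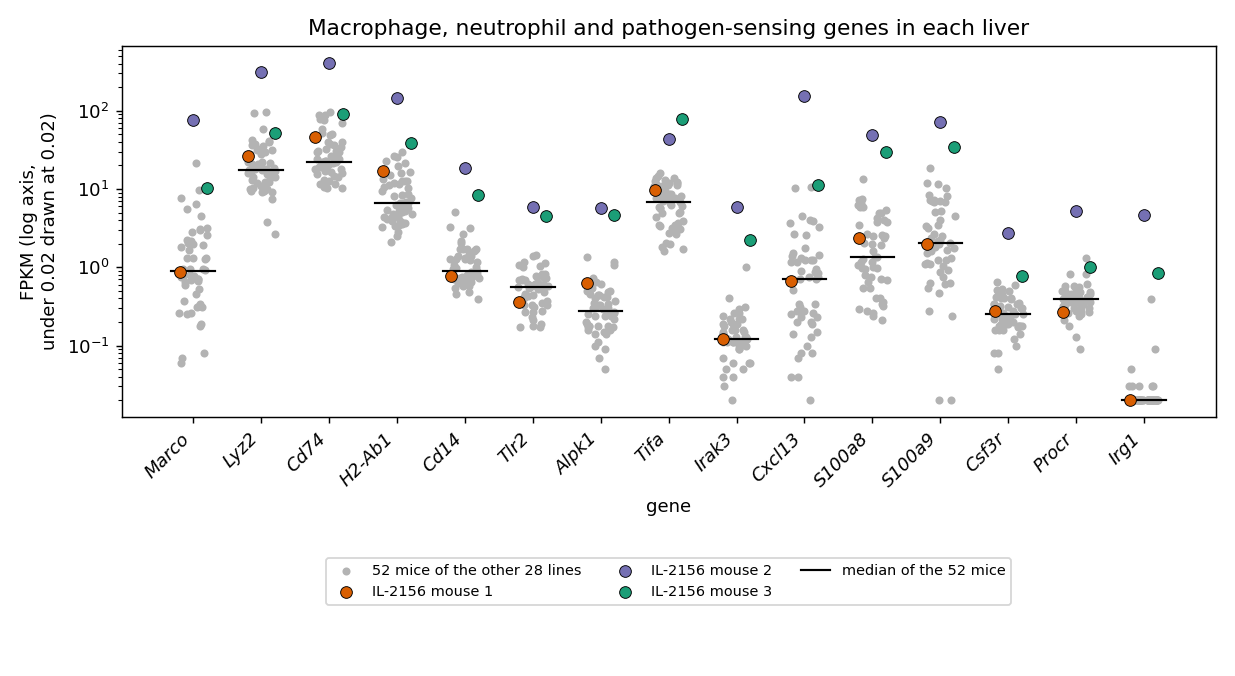
FPKM (log axis) of 15 macrophage, neutrophil and pathogen-sensing genes in each liver, with IL-2156 mice in colour and the other mice in grey. Mouse 2 is the highest of the 3 for most genes (Marco 75.4 FPKM) and mouse 1 (0.88 FPKM) sits near the median of the other mice, whereas Tifa is highest in mouse 3.

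Among the other genes named by their size of change, Isyna1, which makes inositol phosphate, measured 7.45, 30.4 and 87.9 FPKM against a median of 1.75 in the other mice (log2 difference 3.95 ± 0.55 with the line as the unit, edgeR adjusted p = 0.00017). Apol10b, an apolipoprotein L gene, measured 0.25, 10.5 and 5.39 FPKM against a maximum of 0.82. Gas6, a ligand by which phagocytes recognise dying cells, measured 11.6, 25.4 and 81.2 FPKM against a maximum of 25.6. Dnajc12, a co-chaperone, measured 8.60, 42.5 and 82.2 FPKM against 25.5, and Prg4, a lubricating glycoprotein, measured 59.7, 64.9 and 176 against 96.8. In all 5 of these genes mouse 1 lay within the range of the other mice and mouse 3 above it. Mif4gd measured 24.3, 37.75 and 39.4 FPKM against a maximum of 22.8 in the other mice, but in TPM the groups overlapped. Gm11945, a pseudogene whose reads may belong to a close copy, measured 4.96, 5.24 and 4.37 FPKM and at most 0.11 in any other mouse.

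**Figure D3:**
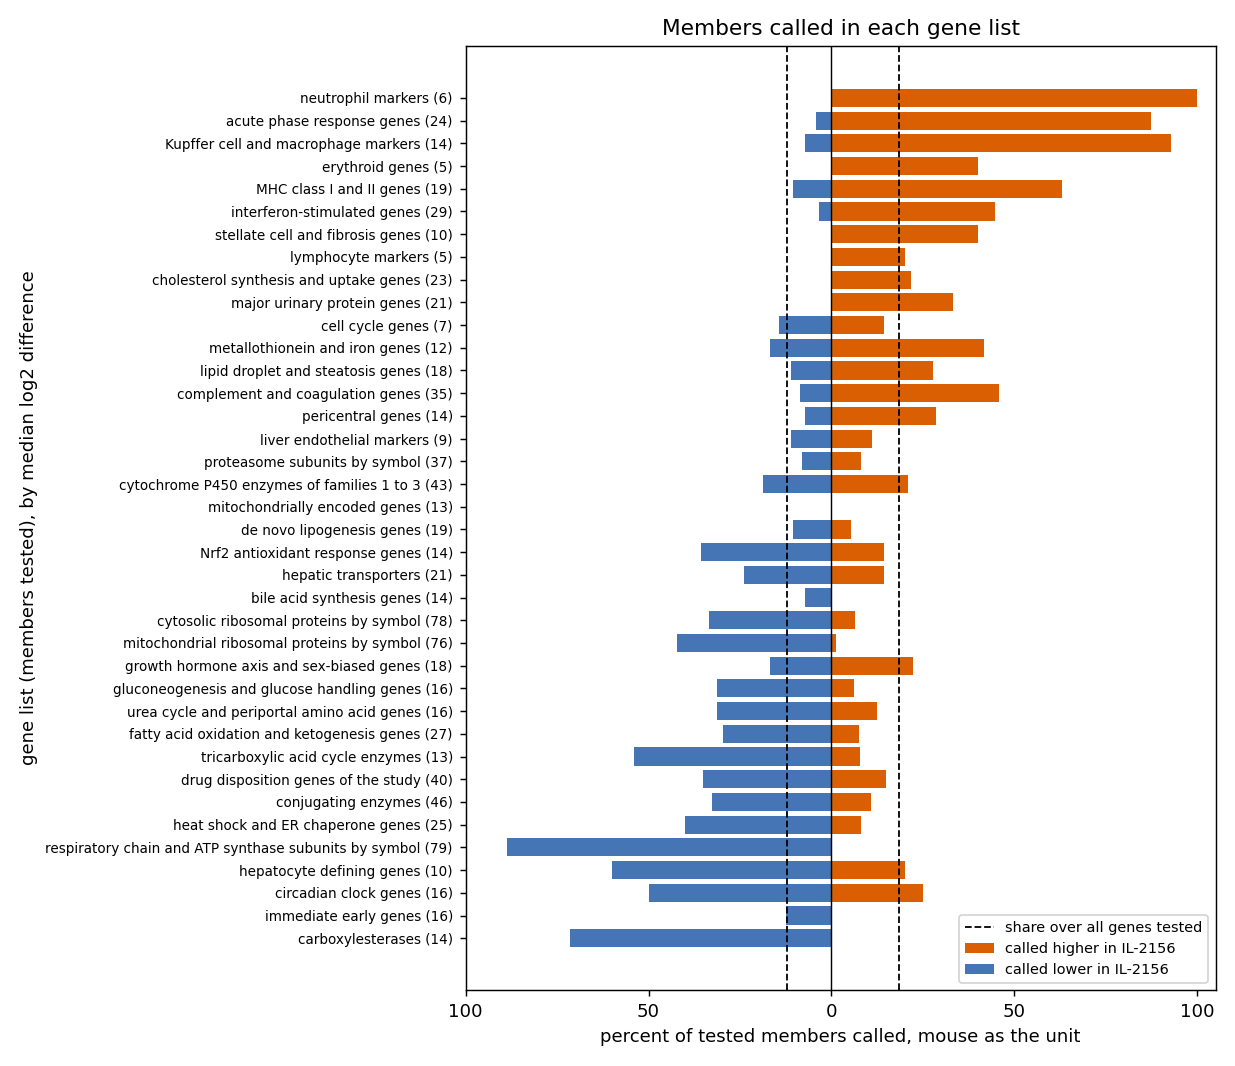
Percent of the tested members of each gene list (number in brackets) called higher (to the right) or lower (to the left) with the mouse as the unit, ordered by the median log2 difference. Dashed lines give the shares over all genes, 18.6% higher and 12.2% lower. Acute phase, neutrophil and macrophage lists reach furthest to the right, and carboxylesterases and the respiratory chain furthest to the left.

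Genes of the mitochondrial respiratory chain were lower. These genes pass electrons from nutrients to oxygen and use the resulting gradient to make ATP. The set was collected by gene symbol after some members had been seen, so its count describes the family and supports nothing beyond it. Of 79 nuclear genes of complexes I to IV, cytochrome c and ATP synthase, 70 (88.6%) were called lower and 0 higher. This was with the mouse as the unit, where 12.2% of all genes were called lower and 18.6% higher. IL-2156 was the lowest of the 29 lines for 40 of the 79 genes, and for 268 of all 11284 genes. With the line as the unit 0 of the 79 were called by edgeR and 0 by DESeq2. The median log2 difference was -0.42, and without mouse 3 the count was 46. Their summed FPKM was 10444, 10379 and 8157 in the 3 mice, below all 52 other mice (10984 to 18186). The sum in TPM, which is scaled to a fixed total, was 13905, 14471 and 11146, and 50 of the 52 other mice lay above all 3.

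Individual subunits differed by similar amounts. Atp5b, the catalytic subunit of ATP synthase, measured 431, 459 and 352 FPKM against 468 to 847 in the other mice (log2 difference -0.49 ± 0.07, edgeR adjusted p = 8.1e-06 with the mouse as the unit). Cox6c of cytochrome oxidase measured 259, 244 and 201 FPKM against 266 to 470, and Ndufb6 of complex I measured 64.3, 59.1 and 52.6 against 67.5 to 162. In FPKM the groups did not overlap for any of these 3. In TPM they did not overlap for Cox6c and Ndufb6 but did for Atp5b. The 13 genes encoded by mitochondrial DNA gave 0 calls in either direction, with a median of -0.03. Of 76 mitochondrial ribosomal proteins 32 (42.1%) were called lower and 1 (1.32%) higher, against 12.2% and 18.6% of all genes. Of 78 cytosolic ribosomal proteins 26 (33.3%) were lower and 5 (6.41%) higher, and of 37 proteasome subunits 3 (8.11%) in each direction. For 13 enzymes of the tricarboxylic acid cycle 7 (53.8%) were called lower and 1 (7.69%) higher.

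**Figure D4:**
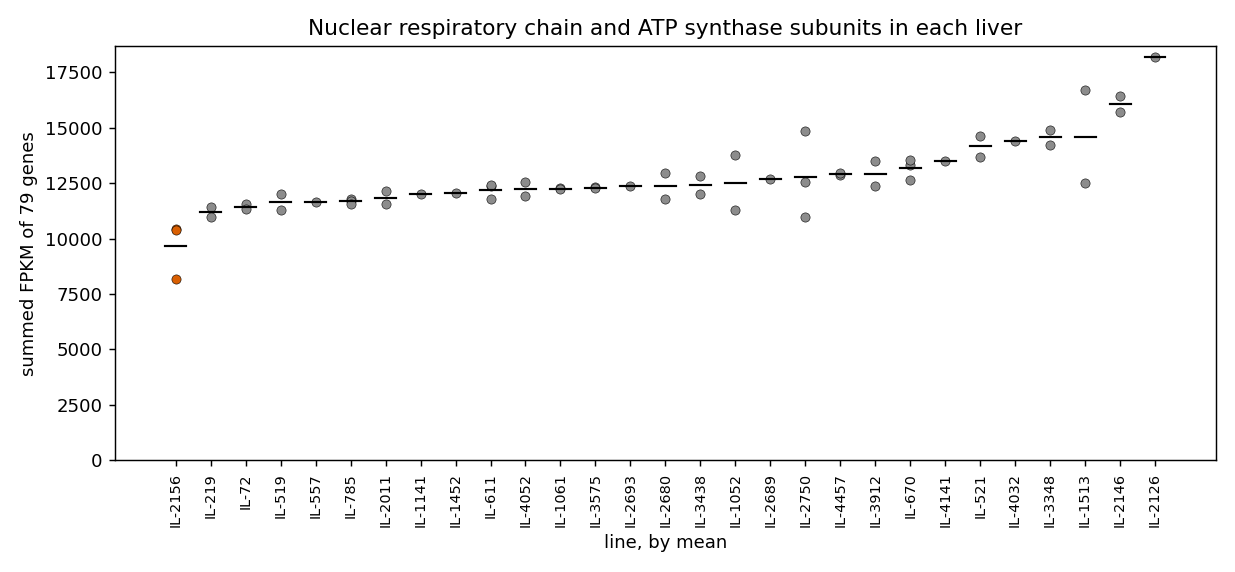
Summed FPKM of 79 nuclear respiratory chain and ATP synthase genes, where each point is a liver, each bar a line mean, and lines are ordered by mean. The 3 IL-2156 livers (orange, 8157 to 10444) are the lowest of the 55, and line IL-2126 is the highest.

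In FPKM, 45 genes (0.399%) had all 3 IL-2156 mice outside the range of the 52 others, 22 higher (0.195%) and 23 lower (0.204%). In TPM the counts were 17 and 12, of which 16 and 12 were in both. Such genes were not particular to IL-2156. Among other lines with 3 mice, FPKM gave 28 higher and 51 lower genes for IL-785 and 18 and 44 for IL-670. The counts were 8 and 10 for IL-611 and 0 and 0 for IL-2750. Lipc, hepatic lipase, which hydrolyses the lipids of circulating lipoproteins, was 1 of the 2 genes called lower with the line as the unit. It measured 37.4, 35.4 and 27.1 FPKM against 51.6 to 111 in the other mice (log2 difference -1.24 ± 0.25, edgeR adjusted p = 0.015). Dmxl2, a regulator of the proton pump of vesicles, was the other and measured 0.38, 0.85 and 0.59 FPKM against 1.38 to 6.12 (-2.39 ± 0.50, edgeR adjusted p = 0.020).

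Both genes lie on chromosome 9, as do 5 more of the 23 non-overlapping lower genes. These 7 lay between 54212965 and 104029976 (NCBI build 37), and chromosome 9 held 5.31% of the tested genes. Cib2, a calcium-binding protein gene 43.0 kb from Dmxl2, measured 0.82, 1.11 and 0.90 FPKM against 1.15 to 6.20. Nt5e, which makes adenosine outside cells, measured 0.48, 0.36 and 0.47 FPKM against 0.55 to 13.4, and Pls1, an actin-bundling protein gene, 0.07, 0.07 and 0.04 against 0.11 to 3.96. Pls1 rests on 4 to 7 fragments per IL-2156 mouse. Ppp2r3a, a phosphatase subunit gene, measured 1.22, 0.83 and 0.86 FPKM against a lowest other value of 1.30, and Acad11, an acyl-CoA dehydrogenase, measured 56.7, 40.7 and 41.6 against 59.2. In TPM the groups overlapped for Cib2 and Acad11. Within that interval 225 genes were tested, of which 49 were called higher and 56 lower with the mouse as the unit. Over all genes the shares were 18.6% and 12.2%. The interval was drawn around the 7 genes, all of which are among the 56. Its count of lower calls is therefore partly fixed by that choice and supports nothing beyond it.

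Away from chromosome 9, Nnt, which makes mitochondrial NADPH, measured 11.4, 9.49 and 8.38 FPKM against 11.5 to 38.8, and Isca1, an iron-sulphur cluster assembly gene, measured 6.97, 6.42 and 6.67 against 7.13 to 34.8. The nearest other mouse was close to IL-2156 for both, and in TPM the groups overlapped for Nnt. Bag2, a co-chaperone, measured 0.08, 0.13 and 0.06 FPKM against 0.22 to 3.07.

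**Figure D5:**
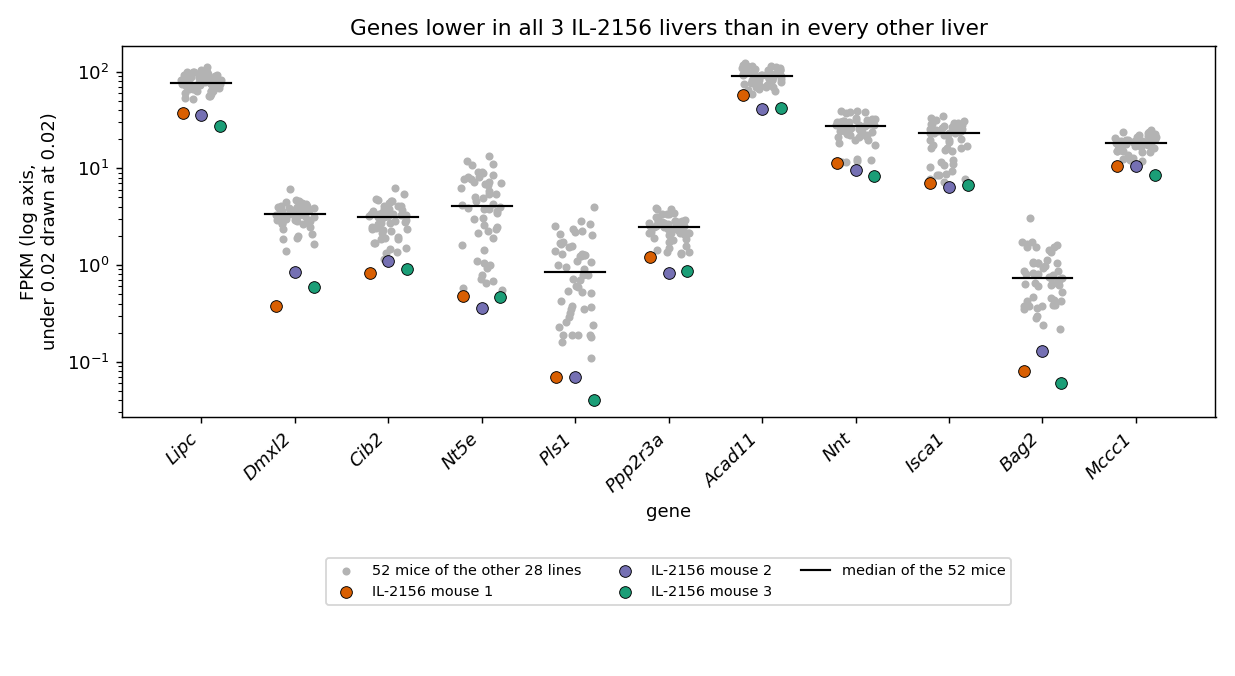
FPKM (log axis) of 11 genes that were lower in all 3 IL-2156 mice (colour) than in the 52 other mice (grey). Lipc (27.1 to 37.4 FPKM against at least 51.6) is clear of the grey points, and for Nnt (11.4 against 11.5 FPKM) and Isca1 (6.97 against 7.13) the groups are almost in contact. In TPM, not drawn, the groups overlapped for Cib2, Acad11 and Nnt.

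Of 14 carboxylesterases, which hydrolyse ester drugs and lipids, 10 (71.4%) were called lower and 0 higher with the mouse as the unit. The share called lower over all genes was 12.2%, and the median log2 difference of the carboxylesterases was -0.74. Without mouse 3 the count of 10 was 6. Ces1g measured 7.57, 8.66 and 2.28 FPKM against a median of 54.3, and Ces2a measured 77.0, 88.9 and 56.5 against 148. Of 46 conjugating enzymes 15 (32.6%) were lower and 5 (10.9%) higher. Ugt2b1, a glucuronosyltransferase, measured 147, 142 and 70.2 FPKM against 297. Of 43 cytochrome P450 genes 18.6% were called lower and 20.9% higher, against 12.2% and 18.6% of all genes. Cyp3a11, a main drug-oxidising enzyme, measured 611, 522 and 413 FPKM against 1350.4 (log2 difference -1.50 ± 0.23, edgeR adjusted p = 6.6e-06 with the mouse as the unit), while Cyp2b10 measured 19.5, 71.4 and 15.4 against 6.49. Nnmt, a nicotinamide methyltransferase, was higher at 49.3, 119 and 182 FPKM against 6.70. Of 40 drug disposition genes, a list the study chose on these samples and so not independent evidence, 14 (35%) were lower and 6 (15%) higher. None of the genes in this paragraph was called with the line as the unit.

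Secreted hepatocyte proteins divided. Alb and Apoa1, the main protein of high-density lipoprotein, were called lower with log2 differences of -0.94 ± 0.22 and -0.57 ± 0.14 (edgeR adjusted p = 0.0015 and 0.0029 with the mouse as the unit), and transferrin (Trf) higher with 0.88 ± 0.14. Of the 10 hepatocyte defining genes 6 (60%) were called lower and 2 (20%) higher, Trf and Fgb. Over all genes the shares were 12.2% and 18.6%.

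Of 16 circadian clock genes, whose levels cycle daily, 8 (50%) were called lower and 4 (25%) higher with the mouse as the unit. Over all genes the shares were 12.2% and 18.6%. Dbp measured 5.73, 1.96 and 2.12 FPKM against a median of 28.3, and Per3 measured 0.46, 0.59 and 0.34 against 1.57. Arntl measured 5.16, 6.53 and 5.38 FPKM against 1.74, and Nfil3 measured 18.1, 17.7 and 28.1 against 7.005. The count of 8 was 3 without mouse 2 and 4 without mouse 3. The hour of dissection is not given in the sources used here and its part was not tested.

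Of 18 lipid droplet genes 27.8% were called higher and 11.1% lower with the mouse as the unit, near the 18.6% and 12.2% of all genes, and the genes described here were highest in mouse 1, the heaviest. Fabp4, a fatty acid carrier, measured 90.6, 17.5 and 8.76 FPKM and Apoa4 measured 2162, 986 and 466, with medians of 8.10 and 153 elsewhere. Mogat1, which makes diacylglycerol, measured 5.86, 0.26 and 0.29 FPKM against a median of 0.21. Without mouse 1 the log2 difference of Mogat1 with the line as the unit was -0.23 in place of 2.94, and the part of body weight was not tested. Fatty acid oxidation genes were called lower in 8 of 27 (29.6%) and higher in 2 (7.41%), against 12.2% and 18.6% of all genes. Ehhadh, a peroxisomal enzyme of that pathway, measured 44.2, 37.6 and 26.5 FPKM against 78.95.

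Isoform ratios divide the expression of a gene among its isoforms in percent. They gave 1 call among 6511 genes tested (0.0154%) with limma on line means. An unadjusted limma p under 0.05 was found for 83, a smaller share than the 0.05 that tests without any difference would give on average. The call was isoform ENSMUST00000050132 of Slc15a5, a transporter of peptides by its family, at 86.9% and 100% in mice 1 and 3 against at most 53.7% in any other line. It rests on 21 fragments of the gene in mouse 1 and 15 in mouse 3, and mouse 2 had 8 and was left out. On the arcsine scale and with van der Waerden scores limma gave 0 calls. The rule for named isoforms, which asked for a mean of at least 100 fragments, chose none. Cryz isoform ENSMUST00000029850 (quinone oxidoreductase), named after its values were seen, took 1.00%, 5.30% and 11.9% in the 3 mice against a median of 87.0% over the other lines, where the lowest line mean was 7.56% (limma adjusted p = 0.14). Tsc22d1 isoform ENSMUST00000022587 took 80.5%, 40.1% and 31.2% against 62.8% to 97.2% (limma adjusted p = 0.082). In Cyp3a25, named as one of the study's examples of isoforms, the main isoform took 76.4%, 80.2% and 82.6%, within the range of the other lines (69.5% to 99.0%). Of the 28 other lines, 22 lay above IL-2156. The isoform annotated for nonsense-mediated decay took 23.5%, 19.8% and 16.2%, against a median of 7.62% over the other lines. The paper displays IL-2156 among its lines with many reads that skip an exon of this gene. The main isoform of Gsta2 took 97.2%, 96.9% and 97.8%, also within range.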

How the data were processed

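Livers of 55 male mice of 29 CC lines were used, grouped by the strain label. The members and gene lists were chosen with earlier results of these data known. Per the labels and the study's methods, RNA with a poly(A) tail was sequenced in paired reads of 50 bases, and aligned and quantified by the authors with RSEM version 1.2.18 on NCBI build 37 (mm9). The deposited estimated counts are fragments per gene, not normalized, with multi-mapping fragments divided by RSEM. Deposited FPKM and TPM are the authors' values, scaled for length and for depth or total. The deposited isoform values give each isoform's share of its gene in percent.

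Counts were rounded. Genes with a maximum FPKM of at least 2 were tested (11284). Of 37620 gene identifiers 37205 were named from the annotation of the same build. For the line as the unit, counts were summed per line and IL-2156 set against 28 lines with edgeR 4.0.16 (TMM, quasi-likelihood F test). With the mouse as the unit, IL-2156 was set against the mean of 28 line coefficients with the same test. The standard errors (SE) are the log2 difference divided by the root of F. The adjusted p-values are by Benjamini-Hochberg over all genes, with 0.05 as threshold. Isoform ratios, of 1 isoform per gene (that with the most distinct rounded levels, at least 12), were missing where a gene had fewer than 10 fragments, and line means were tested with limma 3.58.1. DESeq2 1.42.0 and the alternatives below gave other settings. Calculations used R 4.3.3 and Python 3.11.15.

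The named genes were the 12 with the largest log2 difference in each direction among protein-coding genes called by both tests with a mean of at least 5 FPKM and all 3 mice on that side of the other lines' median (12 were higher and 1 lower), and list members called by both tests. All other named genes, including list members called with the mouse as the unit alone, were chosen after their values were seen. The lists by gene symbol (respiratory chain, ribosome, proteasome, tricarboxylic acid cycle) were also collected afterwards. The tests were tested on simulated data: with 8-fold changes 80% of changed genes were recovered with the line as the unit and 94% with the mouse, and with 2-fold changes 33% and 81%. Of the calls, 5.8% were false with the line as the unit and 8.4% with the mouse. The simulation for the mouse as the unit held no differences between the other lines, unlike these data. P-values measure the spread between lines with the line as the unit and between mice of a line with the mouse as the unit, and the labels do not say whether they came from separate litters or cages.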

Additional observations from a re-analysis of the deposited data

How the results depend on the processing

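With the line as the unit the count of 40 genes became 119 with DESeq2 (31 of the 40 among them), 68 with no filter on low genes, 64 with edgeR's own filter, 10 with body weight as a covariate and 12 with limma on log2(FPKM + 0.1). It ranged from 20 (without mouse 2) to 166 (without mouse 1) when 1 IL-2156 mouse was left out. With the mouse as the unit the count of 3479 stayed within 1.5 times under every alternative run. The isoform count of 1 became 0 on the arcsine scale, 0 with van der Waerden scores, 0 with the isoform of the highest mean, 0 with at least 1 fragment, 2 with lines of at least 2 mice, 3 with all isoforms and 5 with at least 50 fragments, and ranged from 1 to 4 with 1 mouse left out. The 45 non-overlapping genes became 29 in TPM and 27 with a maximum FPKM of at least 10, and 53 to 268 with 1 mouse left out (84 without mouse 2 and 268 without mouse 1). With 1 mouse left out, the lower calls ranged from 46 (without mouse 3) to 70 for respiratory chain genes, from 6 (without mouse 3) to 8 for carboxylesterases and from 3 (without mouse 2; 4 without mouse 3) to 7 for clock genes. Single log2 differences changed sign over the same alternatives for Igkv4-70 (-1.94 without mouse 2, up to 5.65), Mogat1 (-0.23 without mouse 1, up to 3.50) and G0s2 (-0.11 without mouse 1, up to 1.62). The cause of these changes was not tested. With no filter the median log2 difference of all genes was -0.15. No paired analysis was possible because the labels carry no replicate numbers. One line against 28 assumes that IL-2156 varies as they do, and genes near 0 FPKM rest on few fragments.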

Other observations

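Of 25 heat shock and endoplasmic reticulum chaperone genes, 10 were called lower (40% against 12.2% of all genes) and 2 higher in IL-2156 with the mouse as the unit, with a median log2 difference of -0.40. Herpud1, which helps to clear misfolded proteins, measured 51.14, 53.02 and 51.97 FPKM in the 3 mice, within the range of the other mice. Of 23 cholesterol synthesis and uptake genes 21.7% were called higher, near the 18.6% of all genes, and 0 lower, with a median of 0.43. Of 21 major urinary protein genes, which are near-identical copies so that their separate levels are uncertain, 7 were called higher (33.3% against 18.6% of all genes) and 0 lower. Their summed FPKM of 207477, 122658 and 119808 lay within the range of the other mice (29527 to 340869). Spp1 (osteopontin), a marker of bile duct cells that macrophages also make, measured 124, 206 and 128 FPKM. It was the 1 of 4 bile duct markers tested that was called (25% higher, against 18.6% of all genes).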
